A study of Rattus norvegicus with 3 samples.

Results

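The cell-surface heparan sulfate proteoglycans of the syndecan and glypican families were examined together with the genes that make and bind hyaluronan. The members were the syndecans Sdc1, Sdc2, Sdc3 and Sdc4, the glypicans Gpc1, Gpc3 and Gpc4, the hyaluronan synthases Has1 and Has2, and the hyaluronan receptor Cd44. They were chosen as gene families and found on the array through the RefSeq accession of each probe, which gave 14 probes for these 10 genes, of 16745 named probes for 13301 genes in all. Sdc3, Gpc1, Gpc3 and Cd44 had a pair of probes each and the other members a single probe. The study compared rat mesenchymal stem cells (MSC), grown out of femur bone marrow on plastic and not sorted, with the osteosarcoma line COS1NR and the malignant fibrous histiocytoma line MFH1NR. Both lines were established from tumors that 4-HAQO, a chemical carcinogen, induced in F344 rats, and all 3 cell types were of strain F344 and grown in culture, the MSC with a higher share of serum. Both lines carry mutated p53 by the study's methods, and each kind of tumor is represented by 1 line. Age and sex are not given in the sources used here.

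Syndecans span the membrane and glypicans are held on its outer face by a lipid anchor. The heparan sulfate chains of both bind growth factors, morphogens and matrix proteins, and present them to signaling receptors. Hyaluronan is a very long sugar chain with no protein core, extruded through the plasma membrane by its synthases, and Cd44 tethers it to the cell and to the actin skeleton. In bone marrow stroma these molecules are known for holding growth factors and blood-forming cells in place.

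Cy3-labeled RNA of each cell type was hybridized to 1 whole rat genome array, so there were no replicates and no difference could be tested. The values are processed intensities of the spots, and ratios were taken after each array was divided by the 75th percentile of its own intensities. Between 24551 and 25899 spots per array passed the software's call of well above background, and no spot was saturated. The arrays of COS1NR and MFH1NR shared a slide and a scan, and the MSC array was on a second slide. A difference from MSC therefore cannot be told apart from one between slides. Probes printed many times on an array had a median SD between 0.0469 and 0.0575 in log2, and the median gap between different probes of 1 gene was 0.28 for the log2 ratio of COS1NR to MSC and 0.31 for that of MFH1NR. Both cover technical spread alone. Of the MSC markers, CD73 (Nt5e), CD90 (Thy1) and CD105 (Eng) were well above background in MSC, while the osteoblast factor Sp7 was not in COS1NR. On that array 5 of 6 osteoblast markers with a value were at least 2-fold below MSC, against 20.0% of all genes.

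Most of these genes were lower in the sarcoma lines. In COS1NR, 6 of 10 members were at least 2-fold below MSC, namely Sdc2, Sdc3, Sdc4, Gpc4, Has1 and Has2, against 20.0% of all genes with a value, and Gpc3 was the single member at least 2-fold higher, against 20.7%. In MFH1NR, 6 of 9 members with a value were at least 2-fold below MSC, namely Sdc3, Sdc4, Gpc1, Gpc4, Has1 and Has2, against 21.6% of all genes, and none was 2-fold higher, against 19.4%. The median log2 ratio of the members to MSC was -1.59 in COS1NR and -3.23 in MFH1NR, with dim values at their bound, while that of all genes was 0.10 and 0.02. Lower by 2-fold in both lines were Sdc3, Sdc4, Gpc4, Has1 and Has2, 5 of 9 members against 13.6% of all genes. Sdc1 and Cd44 were within 2-fold of MSC in both lines, 2 of 9 members against 46.4%, and no member was 2-fold from MSC in opposite directions, against 2.35%. Both lines are set against the same MSC array, so these are not independent of each other. Has1 entered the counts through MSC alone and Gpc3 through COS1NR alone, since each was well above background on that array only.

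**Figure D1:**
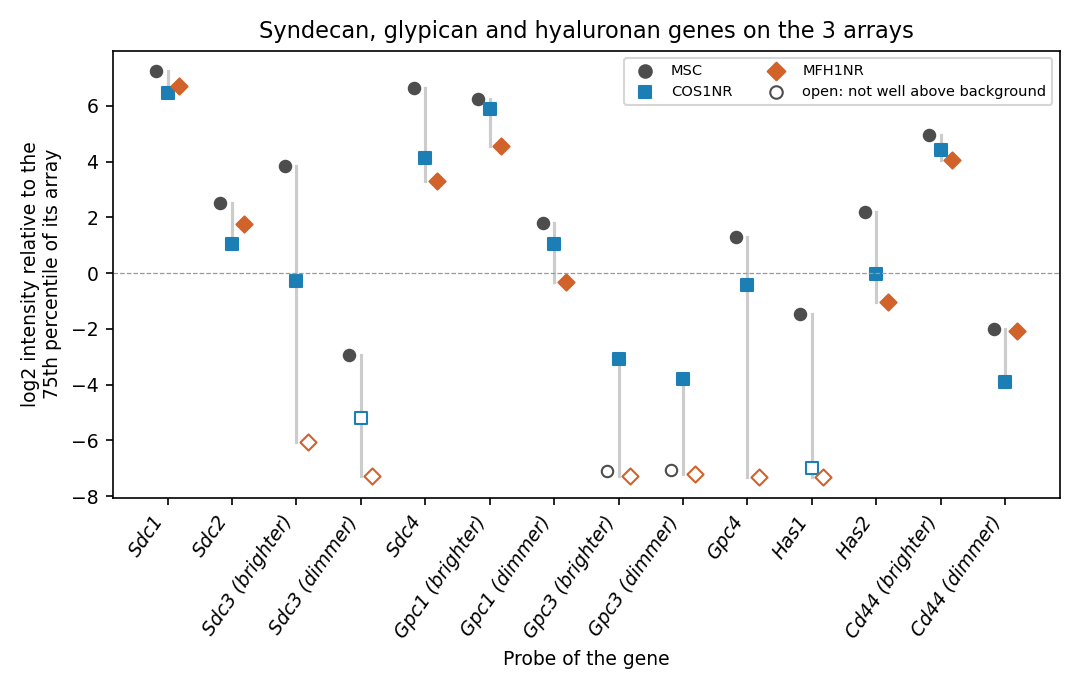
Log2 intensity of each of the 14 member probes after the 75th percentile of each array was subtracted, in MSC (circles), COS1NR (squares) and MFH1NR (diamonds), 1 array each, with open symbols for spots not well above background. Gray lines join the lowest and highest array of a probe. Sdc1 and the brighter probe of Cd44 sit close together on all arrays, Sdc3 and Gpc4 spread widest, and heights of different probes are not comparable.

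The MSC array also carried RNA of blood cell markers. All 14 markers of a macrophage and leukocyte list were well above background in MSC. All were at least 2-fold lower in both lines, against 13.6% of all genes, though Ptprc was within 2-fold in both without scaling. The summed level of the 14 relative to the 75th percentile was 202 in MSC, 13.0 in COS1NR and 5.28 in MFH1NR. Ptprc, Itgam, Adgre1, Lyz2, C1qa and Cd74 were not well above background in either line. They entered this count through MSC alone and could only come out lower. Markers of MSC and stroma had a summed level of 1059 in MSC, 133 in COS1NR and 279 in MFH1NR. Of these 10 markers 9 were at least 2-fold lower in COS1NR, against 20.0% of all genes, and 6 in MFH1NR, against 21.6%. Eng, among the lower ones in both lines, was well above background in MSC only. The part of either set in the decreases reported here against MSC was not tested. In such bulk RNA, fewer cells of a type and less RNA per cell cannot be told apart. Of the markers of plasma cells, in which Sdc1 is also known, Mzb1, Tnfrsf17 and Irf4 were not well above background on any array. Prdm1, also a gene of other cells, was well above background on all, with 147 in MSC, 202 in COS1NR and 56.1 in MFH1NR. Of 6 epithelial markers, 3 were well above background in MSC and 0 in either line.

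Among the syndecans, Sdc3 and Sdc4 were lower in both lines and Sdc1 stayed within 2-fold of MSC. Sdc1, the syndecan best known from epithelia and plasma cells, had a processed intensity of 89523 in MSC, 68366 in COS1NR and 104734 in MFH1NR. The array order was MSC, MFH1NR, COS1NR after scaling, with ratios to MSC of 0.581 and 0.693 in COS1NR and MFH1NR. Without scaling the ratio in MFH1NR turned to 1.17, and quantile normalization gave a log2 ratio of 0.06, so no direction is given for that line. With spike-in scaling the log2 ratio in COS1NR passed 2-fold, at -1.06. Sdc2, the syndecan typical of fibroblasts and other mesenchymal cells, had 3348 in MSC, 1576 in COS1NR and 3373 in MFH1NR. It was 2.79-fold lower than MSC in COS1NR and had a ratio of 0.597 in MFH1NR, which was 1.01 without scaling. COS1NR was the low array for Sdc2, with MFH1NR midway between it and MSC on the scaled log2 axis and level with MSC without scaling.

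Sdc3, known mainly from neural tissue and developing limb cartilage, showed the widest span of the family. Its brighter probe had 8534 in MSC, 633 in COS1NR and 14.9 in MFH1NR, where it was not well above background. Relative to MSC this was 17.7-fold lower in COS1NR, and in MFH1NR at least 479-fold lower. The dimmer probe had 76.5 in MSC and was not well above background in COS1NR, at 21.1, or in MFH1NR, at 6.42, with bounds of at least 3.42-fold and 4.30-fold lower. Both probes placed MSC highest. Sdc4, the syndecan of focal adhesions, had 58862 in MSC, 13592 in COS1NR and 9844 in MFH1NR, with all arrays far above background. It was 5.69-fold lower than MSC in COS1NR and 10.1-fold lower in MFH1NR. Between the lines the ratio of MFH1NR to COS1NR was 0.564, under 2-fold.

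The stretches of 250 bases before the annotated start of Sdc1 and Sdc4 are shown because 1 stayed within 2-fold of MSC in both lines and the other did not. They are RefSeq sequence of the GRCr8 assembly, which held such a stretch for 7 of the 10 members. Capitals mark the GC-rich hexamer GGGCGG and the pentamer TATAA on either strand, that is also CCGCCC and TTATA, which can overlap.
Sdc1 (chr6:37281791-37282040, plus strand): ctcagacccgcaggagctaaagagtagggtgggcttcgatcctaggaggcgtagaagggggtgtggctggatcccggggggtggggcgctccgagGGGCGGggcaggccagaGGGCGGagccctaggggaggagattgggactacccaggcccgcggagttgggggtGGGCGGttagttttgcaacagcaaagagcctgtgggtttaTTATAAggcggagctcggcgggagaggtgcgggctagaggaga
Sdc4 (chr3:173592924-173593173, minus strand): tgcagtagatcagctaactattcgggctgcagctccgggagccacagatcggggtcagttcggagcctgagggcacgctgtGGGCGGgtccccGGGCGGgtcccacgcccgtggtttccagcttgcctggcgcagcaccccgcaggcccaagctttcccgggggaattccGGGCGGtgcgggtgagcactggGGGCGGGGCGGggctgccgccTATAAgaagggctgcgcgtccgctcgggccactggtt
Sdc1 held GGGCGG 3 times and Sdc4 5 times, and each held TATAA, starting 42 and 37 bases before the start. Of all 33469 stretches of this length, 30.5% held GGGCGG and 24.0% held TATAA on either strand. Among the 7 members with a stretch, 5 held the hexamer and 2 the pentamer.

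The glypicans went different ways in COS1NR, while in MFH1NR both glypicans with a value were below MSC. Gpc1, a glypican that binds fibroblast growth factors, had 45042 in MSC, 45607 in COS1NR and 23323 in MFH1NR by its brighter probe and 2046 in MSC, 1594 in COS1NR and 789.5 in MFH1NR by its dimmer one. In COS1NR the ratios to MSC were 0.771 and 0.593, the former 1.01 without scaling. In MFH1NR Gpc1 was 3.26-fold lower by the brighter probe and 4.37-fold lower by the dimmer one, though without scaling the brighter probe fell short of 2-fold there, at a log2 ratio of -0.95. MFH1NR was the low array by both probes.

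Gpc3, an oncofetal glypican that is a marker of hepatocellular carcinoma and restrains Hedgehog signaling, was well above background in COS1NR only. Its brighter probe had 4.32 in MSC, 91.0 in COS1NR and 6.32 in MFH1NR, and the other one had 4.35 in MSC, 55.1 in COS1NR and 6.68 in MFH1NR. COS1NR was at least 3.87-fold higher than MSC by the brighter probe and at least 2.34-fold by the other. The bound fell under 2-fold after a normexp background correction, at a log2 ratio of 0.82. No ratio of MFH1NR to MSC can be given, since both were at background. Adipocyte markers were highest in the same array. Of 5 such markers, 4 were at least 2-fold higher in COS1NR than in MSC, against 20.7% of all genes. Among these 4, Cebpa was within 2-fold with spike-in scaling and normexp, at log2 ratios of 0.97 and 0.82. The summed level of the 5 was 1.83 in MSC, 38.1 in COS1NR and 0.334 in MFH1NR, with Fabp4 at 21786 in COS1NR. The part of these markers in the Gpc3 difference was not tested.

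Gpc4, a glypican of embryonic and mesenchymal tissue, had 1444 in MSC, 580.1 in COS1NR and 6.29 in MFH1NR, where it was not well above background. It was 3.27-fold below MSC in COS1NR, and the bound in MFH1NR was at least 81.1-fold below. The genes of Gpc3 and Gpc4 are neighbors on the X chromosome, with 3 annotated genes between them, and lay in opposite directions from MSC in COS1NR. The sequence before both starts is shown for this reason, marked as above.
Gpc3 (chrX:137157599-137157848, minus strand): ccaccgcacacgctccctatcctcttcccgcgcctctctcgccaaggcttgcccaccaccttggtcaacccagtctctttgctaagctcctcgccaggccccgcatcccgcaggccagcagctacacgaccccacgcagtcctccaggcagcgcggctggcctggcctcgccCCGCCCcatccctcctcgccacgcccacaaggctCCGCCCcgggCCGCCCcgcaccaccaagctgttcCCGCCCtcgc
Gpc4 (chrX:136676058-136676307, minus strand): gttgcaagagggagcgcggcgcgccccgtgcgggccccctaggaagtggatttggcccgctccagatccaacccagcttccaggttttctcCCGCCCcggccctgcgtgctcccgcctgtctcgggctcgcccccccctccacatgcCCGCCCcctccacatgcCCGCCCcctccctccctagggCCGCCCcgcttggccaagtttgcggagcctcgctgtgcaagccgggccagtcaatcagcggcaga
Each held GGGCGG 4 times on either strand and neither held TATAA, and both had a GC content of 71.6%.

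**Figure D2:**
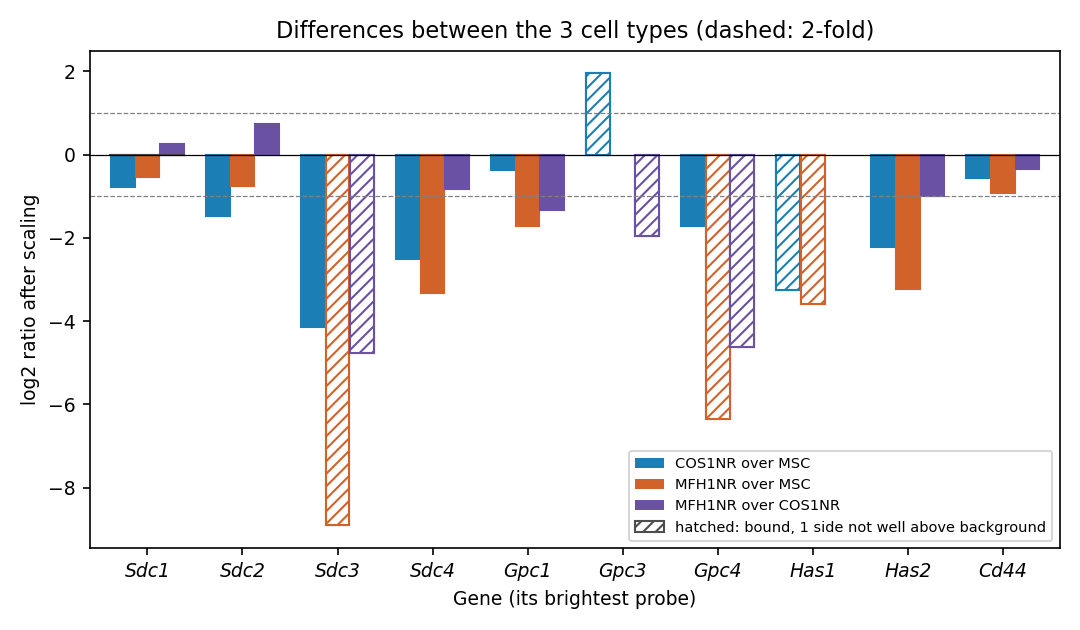
Log2 ratio after scaling of each member by its brightest probe, for COS1NR over MSC, MFH1NR over MSC and MFH1NR over COS1NR, with hatched bars where 1 side was not well above background and the bar is a bound. Bars of Sdc3, Sdc4, Gpc4, Has1 and Has2 pass the dashed 2-fold line below MSC in both lines, and Gpc3 passes it above MSC in COS1NR. Ratios with both sides at background have no bar.

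Both hyaluronan synthases on the member list were lower in the sarcoma lines, while Cd44 was within 2-fold of MSC by its brighter probe. Has2, the main synthase of mesenchymal cells, had 2699 in MSC, 758 in COS1NR and 485 in MFH1NR. It was 4.68-fold lower than MSC in COS1NR and 9.39-fold lower in MFH1NR. Every array measured it well above background, and the order MSC, COS1NR, MFH1NR held under all alternatives tried. Has1 had 213 in MSC, 6.03 in COS1NR and 6.17 in MFH1NR and was well above background in MSC only. The bound on its decrease was 9.51-fold or more in COS1NR and 11.9-fold or more in MFH1NR. The remaining synthase, Has3, which is not a member, was not well above background on any array, at 4.08 in MSC, 6.68 in COS1NR and 6.73 in MFH1NR. In both lines Has2 was then the only 1 of the 3 synthases above the background call.

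The sequence before the start of Has1 is shown beside those above because its transcript was seen in MSC alone.
Has1 (chr1:67378445-67378694, minus strand): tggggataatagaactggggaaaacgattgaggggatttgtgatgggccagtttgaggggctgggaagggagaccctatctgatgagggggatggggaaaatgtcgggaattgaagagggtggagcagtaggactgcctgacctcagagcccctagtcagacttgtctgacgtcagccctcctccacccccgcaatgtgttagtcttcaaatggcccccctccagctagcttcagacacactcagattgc
It held neither GGGCGG nor TATAA and had a GC content of 54.8%. The stretch of Cd44, a gene well above background on all arrays, also held neither and had a GC content of 60.8%. Sdc2, Gpc1 and Has2 had no entry.

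Cd44, the main cell-surface receptor of hyaluronan and a marker used for MSC, was read differently by its probes, which carry the same RefSeq accession. The brighter probe had 18465 in MSC, 16309 in COS1NR and 16364 in MFH1NR, and the sarcoma lines were nearly equal there before scaling. The dimmer probe had 148 in MSC, 51.1 in COS1NR and 233 in MFH1NR, with COS1NR lowest. In COS1NR the log2 ratio to MSC was -0.57 by the brighter and -1.93 by the dimmer probe, and in MFH1NR -0.93 and -0.10. The probes were 1.35 apart in COS1NR and 0.83 apart in MFH1NR, against 90th percentiles of 0.91 and 0.99 over 1895 genes with a pair of probes well above background. Both probes placed MSC highest after scaling, though MFH1NR was the highest array of the dimmer probe without it, and they disagreed on the order of the lines. Cd44 is spliced into many isoforms, and the position of the probes in the transcript is not given in the sources used here.

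The direct comparison of the sarcoma lines, on 1 slide, set MFH1NR below COS1NR for the 3 glypicans among the members. At least 2-fold lower in MFH1NR were 5 of 9 members with a value, against 15.1% of all genes, and none was 2-fold higher, against 12.4%. All 3 glypicans were among them. Gpc1 was 2.51-fold lower by the brighter probe and 2.59-fold lower by the dimmer one, Gpc3 at least 3.89-fold and Gpc4 at least 24.8-fold. By its brighter probe Gpc1 was within 2-fold without scaling, at a log2 ratio of -0.97, and with spike-in scaling, at -0.54. Sdc3 was at least 27.0-fold lower by its brighter probe, and its dimmer probe gave no ratio. With normexp the log2 ratio was -3.42 for Sdc3 and -3.36 for Gpc4. Has2 was 2.01-fold lower, at the threshold, and under 2-fold under each other scaling and normexp, with a log2 ratio of -0.64 without scaling and -0.21 with spike-in scaling. Sdc2 went the other way with a ratio of 1.66, which passed 2-fold without scaling, at 2.14, and with spike-in scaling, as did that of Sdc1 with spike-in scaling, at a log2 ratio of 1.05. Cd44 had ratios of 0.781 and 3.55 by its brighter and dimmer probe.

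The heparan sulfate chains are built on syndecans and glypicans by a series of enzymes. Of 28 listed genes, 18 had a named probe and all of these were used. In COS1NR 3 were at least 2-fold higher and 3 lower, against 20.7% and 20.0% of all genes, with a median log2 ratio of 0.01. Hs3st1, among the higher ones, was well above background in COS1NR only. In MFH1NR 1 of 17 with a value was higher and 4 were lower, against 19.4% and 21.6% of all genes, with a median of -0.71. Without scaling the counts in MFH1NR were 5 higher and 1 lower. Ext2, a subunit of the polymerase that lengthens the chain, had a ratio to MSC of 0.943 in COS1NR and one of 0.594 in MFH1NR. Ndst2, which replaces acetyl by sulfate groups on the growing chain, had 16926 in MSC, 3581 in COS1NR and 7382 in MFH1NR and was 6.21-fold and 3.87-fold lower. Its relative Ndst1 had ratios of 0.778 and 1.29. Ugdh makes the glucuronic acid donor for heparan sulfate and for hyaluronan alike, and it was 3.99-fold lower in COS1NR and 3.14-fold lower in MFH1NR, the latter under 2-fold without scaling, at a log2 ratio of -0.89. Ndst2 and Ugdh were the listed genes lower by 2-fold in both lines. Extl1, of the same family as the polymerase, was dim, with 22.7 in MSC, 83.2 in COS1NR and 108 in MFH1NR, and had ratios of 2.79 and 2.83, under 2-fold after normexp.

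A further list held the enzymes that edit the finished chains or release the core proteins. Of 12 listed genes, 8 were used, and 4 were at least 2-fold below MSC in COS1NR, against 20.0% of all genes. In MFH1NR 5 were lower and 2 higher, against 21.6% and 19.4%. With normexp 1 was higher, since Gpld1 was then within 2-fold. The median log2 ratio was -1.32 in COS1NR and -2.71 in MFH1NR. Sulf1 and Sulf2, extracellular sulfatases that trim heparan sulfate, were lower in both lines. Sulf1 had 1488 in MSC, 597 in COS1NR and 8.54 in MFH1NR, and was 3.28-fold and at least 83.5-fold lower. Sulf2 had 299 in MSC, 57.5 in COS1NR and 7.33 in MFH1NR, and was 6.83-fold and at least 16.8-fold lower. Neither was well above background in MFH1NR. Mmp14, a membrane-anchored protease that can cleave Cd44 and syndecans, was high in MSC and MFH1NR and low in COS1NR, with 41332 in MSC, 1208 in COS1NR and 55144 in MFH1NR, and was 44.9-fold lower in COS1NR than in MSC. Mmp9, a secreted protease that Cd44 can hold at the cell surface, had 2730.1 in MSC, 1892 in COS1NR and 102 in MFH1NR, and was 45.0-fold lower in MFH1NR, with a ratio of 0.528 in COS1NR. Adam17, a sheddase of syndecans, had a ratio of 0.944 in COS1NR against 0.389 in MFH1NR, and its inhibitor Timp3 was well above background in MSC only, at 454, and at least 20.3-fold and 25.5-fold lower. Notum, a secreted esterase that acts on Wnt proteins and has been described to release glypicans, had 23.9 in MSC, 6.45 in COS1NR and 610.2 in MFH1NR and was 15.1-fold higher in MFH1NR than in MSC. Its level in MSC was close to the background limit, and the log2 ratio of 3.92 became 2.27 with normexp and 4.67 without scaling.

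Of the other heparan sulfate proteoglycans, 5 of 8 listed genes were used. None was 2-fold higher than MSC in either line, and 1 was lower in COS1NR, namely Nrp1, and 3 were lower in MFH1NR. Of all genes 20.7% and 20.0% were higher and lower in COS1NR, and 19.4% and 21.6% in MFH1NR. The counts in COS1NR turned to 1 higher, Col18a1, and 0 lower without scaling, with median scaling and with normexp, and to 0 lower with quantile normalization. Col18a1, the collagen XVIII chain of basement membranes, had 3961 in MSC, 9798 in COS1NR and 150.2 in MFH1NR, and was 44.5-fold lower in MFH1NR than in MSC by its brighter and 57.3-fold by its dimmer probe. In COS1NR its ratios were 1.88 and 1.69. Agrn, which encodes agrin, had ratios of 1.20 and 1.08. Tgfbr3, the proteoglycan co-receptor betaglycan, had 0.903 and 0.411. The glypican Gpc2 was near the background limit, and not well above it in COS1NR, with 32.0 in MSC, 24.2 in COS1NR and 34.7 in MFH1NR, and Gpc5 was not well above background on any.

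**Figure D3:**
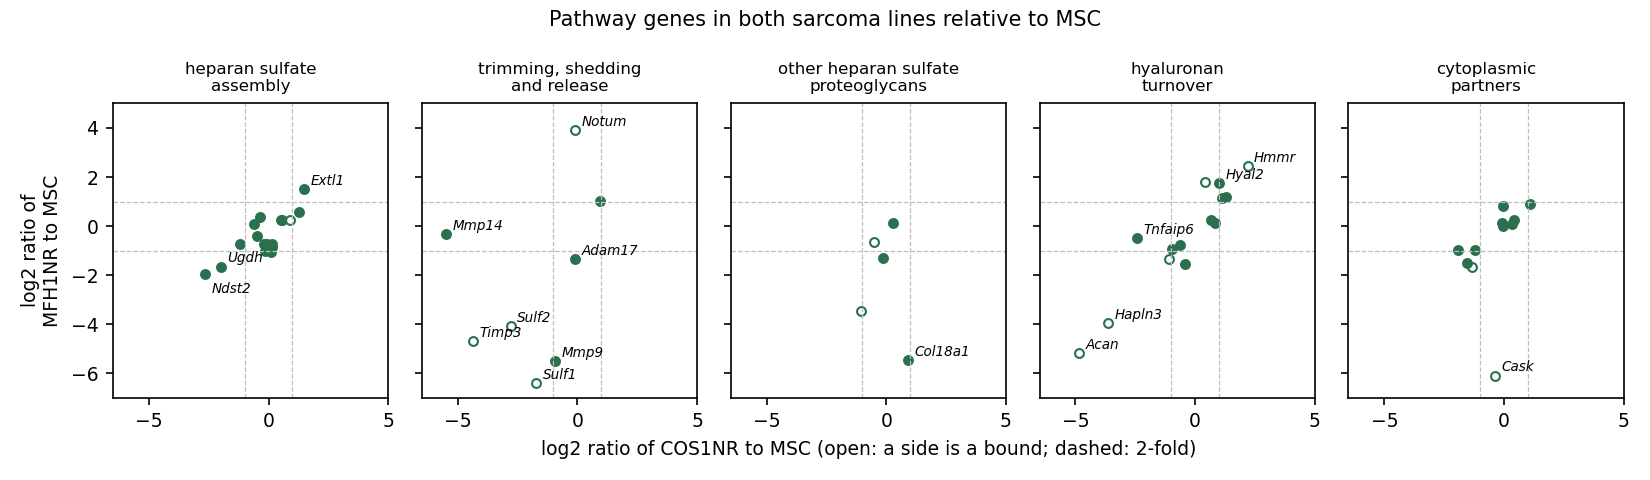
Log2 ratio to MSC of each listed gene in COS1NR (horizontal axis) and in MFH1NR (vertical axis), 1 panel per gene list, with open symbols where a side is a bound, dashed lines at 2-fold and the names of some genes. Among heparan sulfate assembly genes Ndst2, Ugdh and Extl1 lie past 2-fold in both lines, while Mmp14 lies far to the left and Notum, Sulf1, Col18a1 and Cask lie far above or below 0 in MFH1NR.

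Genes of hyaluronan binding and breakdown were found both above and below MSC. Of 26 listed genes other than the members, 16 were used. In COS1NR 4 of 15 were at least 2-fold higher and 4 lower than MSC, against 20.7% and 20.0% of all genes. In MFH1NR 6 of 15 were higher and 4 lower, against 19.4% and 21.6% of all genes. The medians were 0.40 and 0.12 in log2. Lyve1, Acan and Hapln3, lower in both lines, were well above background in MSC only and could only be counted as lower. Hmmr and Hapln1, not well above background in MSC, could only be counted as higher. Hyal2, a cell-surface hyaluronidase, had 3419.6 in MSC, 8992 in COS1NR and 19269 in MFH1NR, with MFH1NR highest, and ratios to MSC of 2.00 and 3.34. The ratio in COS1NR was at the threshold and under 2-fold with quantile normalization, spike-in scaling and normexp. The link proteins Hapln4 and Hapln2 were higher in both lines by their brighter probes. Hapln4 had ratios to MSC of 2.43 and 2.28, and 2.14 and 9.04 by its dimmer probe. Hapln2 had 2.19 and 2.23, and 1.46 and 1.65 by its dimmer probe, and the brighter one was within 2-fold in COS1NR with spike-in scaling and normexp. The large hyaluronan-binding proteoglycan Vcan had 9062 in MSC, 8757 in COS1NR and 5199.8 in MFH1NR, and was 2.94-fold lower in MFH1NR but had a ratio of 0.736 in COS1NR. Acan, the aggrecan of cartilage, was well above background in MSC only, at 641, and at least 28.6-fold and 36.0-fold lower in the lines. The link protein gene Hapln3 was likewise well above background in MSC only, at 279. Tnfaip6, a hyaluronan-binding protein secreted in inflammation, had 313 in MSC, 77.3 in COS1NR and 379 in MFH1NR and was 5.32-fold lower in COS1NR, with a ratio of 0.717 in MFH1NR.

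Hmmr, a hyaluronan-binding protein that also acts at the mitotic spindle, had 6.64 in MSC, 107 in COS1NR and 166 in MFH1NR. It was not well above background in MSC, and its level exceeded the MSC limit at least 4.55-fold in COS1NR and 5.51-fold in MFH1NR. Proliferation markers moved with it, with 8 of 8 at least 2-fold higher in COS1NR and 8 in MFH1NR, against 20.7% and 19.4% of all genes. Their summed level was 38.6 in MSC, 206 in COS1NR and 181 in MFH1NR, and their part in the Hmmr difference was not tested.

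Inside the cell, the tails of syndecans bind PDZ proteins and that of Cd44 binds the ezrin family. The list of these partners also held Esrp1 and Esrp2, which steer the splicing of Cd44 and do not bind its tail. Of 11 genes used, of 13 listed, Esrp2 alone was at least 2-fold higher and 4 were lower in COS1NR than in MSC, against 20.7% and 20.0% of all genes, and none was higher and 3 were lower in MFH1NR, against 19.4% and 21.6%. Esrp2 in COS1NR was within 2-fold with spike-in scaling and normexp, which left 0 higher. In MFH1NR it was within 2-fold as reported and with normexp, and past 2-fold above MSC under each other scaling. Sdcbp2, among the lower genes of both lines, was well above background in MSC only. Sdcbp, which encodes syntenin and binds the end of all syndecan tails, had 61468 in MSC, 79219.5 in COS1NR and 182724 in MFH1NR, with ratios to MSC of 0.981 and 1.76. In MFH1NR it passed 2-fold above MSC under each other scaling and normexp, with log2 ratios between 1.02 and 1.57. Cask, another PDZ partner of syndecans, was measured by 3 probes, none of which was well above background in MFH1NR. They bounded it there at 68.2-fold, 20.5-fold and 21.1-fold or more below MSC. In COS1NR the ratios of Cask to MSC were 0.768, 0.326 and 0.232, so the brightest probe was within 2-fold there and the other two were not. Actn1, an actin cross-linker of focal adhesions, was 2.89-fold and 2.85-fold lower, the latter under 2-fold without scaling and with spike-in scaling. Ezr and Rdx, which link Cd44 to actin, had ratios between 0.939 and 1.24 in both lines by their brighter probes. Msn, the third of this family, had 557 in MSC, 315 in COS1NR and 482 in MFH1NR, and its ratios were 0.430 and 0.512, the former within 2-fold without scaling and with normexp.

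Scaling shifted all ratios together. Without scaling, the median log2 ratio of all genes moved from 0.10 to 0.49 in COS1NR and from 0.02 to 0.77 in MFH1NR, and with spike-in scaling it was -0.16 and 0.53. Sdc3, Sdc4, Gpc4, Has1 and Has2 were at least 2-fold below MSC in both lines under each alternative that gave them a value. Normexp was run with an offset of 50, which draws ratios of dim probes toward 0. With it the log2 ratio of MFH1NR to MSC was -7.42 for Sdc3, -4.91 for Gpc4 and -2.54 for Has1. Without scaling, Adam17, Tgfbr3 and Vcan were within 2-fold of MSC in MFH1NR, Adam17 and Tgfbr3 also with spike-in scaling and Tgfbr3 with normexp.

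**Figure D4:**
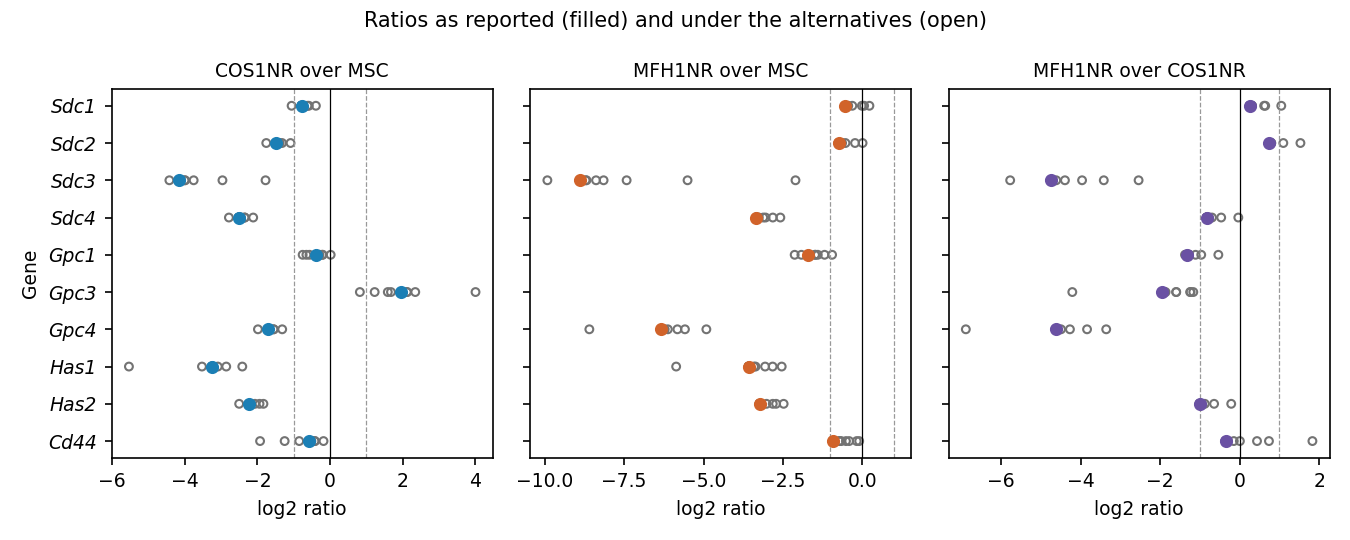
Log2 ratio of each member as reported (filled) and under each alternative setting (open), 1 panel per comparison, with a solid line at 0 and dashed lines at 2-fold. Sdc3, Sdc4, Gpc4, Has1 and Has2 stay left of the 2-fold line in both panels against MSC, while Sdc1, Sdc2, Gpc1 and Cd44 have a value right of 0 in at least 1 panel.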

How the data were processed

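RNA of MSC, COS1NR and MFH1NR was measured on 1 Agilent whole rat genome array each. The authors deposited processed intensities from Agilent Feature Extraction (10.5.1.1 per the file headers, 9.1 per the labels), which subtracted background and detrended each array but did not scale between arrays. The array design was annotated on rn4. On each array all 45018 values of the series table were exactly equal to the processed intensities of the scanner file, with column medians of 44.7 in MSC, 53.3 in COS1NR and 65.5 in MFH1NR. RNA isolation and labeling kits differ between methods and labels.

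Control spots and outlier spots (187 to 217 per array) were left out, spots of a probe were averaged in log2, and the 75th percentile of non-control spots was subtracted. A gene was read from its probe of highest mean, and 10010 genes well above background on at least 1 array were used. A value not well above background was raised to the lowest intensity called so on its array (17.9 in MSC, 29.4 in COS1NR and 30.1 in MFH1NR), which makes the ratio a bound. The software's own error estimate was between 10.0% and 16.2% of the intensity for member spots well above background. Names came from a RefSeq gene table of GRCr8 by accession. Genes 2-fold apart were counted and no test was made.

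Members and lists were chosen with earlier results of these data known. Named were the members, listed genes by their known role, and up to 3 listed genes highest or lowest in both lines. Alternatives were other scalings, normexp with an offset of 50, the series table, other probes, filters and a 3-fold threshold. Normexp was run on the median spot intensity, a form chosen, like spike-in scaling by 7 probes, after the data were seen. The steps were tested on simulated data. Python 3.11.15, numpy 2.4.6, pandas 2.3.3, scipy 1.17.1, matplotlib 3.10.9, R 4.3.3 and limma 3.58.1 were used.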

Additional observations from a re-analysis of the deposited data

Results flagged for a closer look

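No member was at least 2-fold from MSC in opposite directions in the lines, but 4 listed marker genes were, and these differences were not tested. Osteopontin, encoded by Spp1, is a ligand of Cd44 as well as a bone matrix protein. It had a processed intensity of 36180.0 in MSC, 22285 in COS1NR and 149222 in MFH1NR, with log2 ratios to MSC of -1.09 in COS1NR and 1.29 in MFH1NR, the former within 2-fold without scaling, with median scaling and with quantile normalization. Among adipocyte markers the log2 ratio to MSC of Pparg was 2.84 in COS1NR against -3.29 in MFH1NR, that of Fabp4 5.76 against -4.11, and that of Lpl 3.25 against -4.68. None of these adipocyte genes was well above background in MFH1NR, so the negative values are bounds.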

How the results depend on the processing

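Counts of members 2-fold apart were recomputed under 12 alternatives for 6 counts, and 61 of 72 values stayed within 1.5 times. Some of these were fixed in advance. The series table holds identical values, and all members pass the filter on dim genes, so neither the table nor leaving out the filter could change a count. Against MSC, the use of genes well above background on all arrays left 6 members, with 3 lower in COS1NR, 3 lower in MFH1NR and 0 higher in COS1NR, because Sdc3, Gpc3, Gpc4 and Has1 were dropped. Normexp gave 0 higher in COS1NR. Between the lines, the count of members lower in MFH1NR moved from 5 to 3 without scaling, to 3 with spike-in scaling, to 3 at a 3-fold threshold and to 2 with genes well above background on all arrays, and the count of those higher from 0 to 1 without scaling, to 1 with the dimmest probe and to 2 with spike-in scaling. Of 325 member ratios recomputed, 8 changed sign, none of which was 2-fold apart as reported, and 16 crossed 2-fold. These 325 include ratios that could not move. The series table, the 3-fold threshold and the filters on dim genes leave every ratio as reported. Other probe choices could change only those of Sdc3, Gpc1, Gpc3 and Cd44. Those that changed sign were Gpc1 in COS1NR and Sdc1 and Sdc2 in MFH1NR without scaling, Sdc1 in MFH1NR after quantile normalization, and Cd44 between the lines without scaling, with spike-in scaling, by the mean of its probes and by its dimmest probe. Over other scalings and normexp, the gene list of heparan sulfate assembly had 1 to 4 genes 2-fold higher in COS1NR, and 0 to 5 higher and 1 to 4 lower in MFH1NR, with a median log2 ratio there between -0.71 and 0.04. Hyaluronan binding and breakdown had 2 to 7 higher in COS1NR and 2 to 4 lower in MFH1NR, cytoplasmic partners 0 to 1 higher and 2 to 4 lower in COS1NR, and 0 to 2 higher and 1 to 3 lower in MFH1NR. Trimming and release had 0 to 1 higher and 4 to 5 lower in COS1NR and 1 to 2 higher and 4 to 5 lower in MFH1NR. Other proteoglycans had 0 to 1 higher and 0 to 1 lower in COS1NR and 2 to 3 lower in MFH1NR. No replicate could be left out. No paired analysis was possible because there is 1 array per cell type. Signal over background limits Gpc3, whose intensity of 91.0 in COS1NR was close to the background limit.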

Other observations

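Thy1, like Gpc4, set the lines apart, but with COS1NR as the low array, at 2781 in MSC, 6.29 in COS1NR and 2632 in MFH1NR. Esrp1, a splicing factor that favors the epithelial forms of Cd44, was not well above background on any array, and its relative Esrp2 had 115 in MSC, 325 in COS1NR and 367 in MFH1NR.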
